A study of Mus musculus with 6 samples.

Results

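Regions of the mouse embryonic stem cell genome that held Hdac1 together with only 1 of the paralogs Tgif1 and Tgif2 are described here. Members were chosen by the presence or absence of peaks. All peaks of the 5 deposited lists (Tgif1, Tgif2, Hdac1, Nanog and Smad3) were merged where they overlapped by at least 1 bp. Regions on chromosomes 1 to 19 were kept as members if they had an Hdac1 peak, a peak of exactly 1 paralog and no Smad3 peak. Nanog was free to be present or absent. Of 32551 merged regions on these chromosomes, 3198 were members, with 1272 holding Tgif1 (the Tgif1 side) and 1926 holding Tgif2 (the Tgif2 side). They made up 21.3% of the 15035 regions with Hdac1 and without Smad3, of which 8266 held both paralogs and 3571 held neither.

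Every group was 1 chromatin immunoprecipitation and sequencing (ChIP-seq) library from J1 mouse embryonic stem cells that carry BirA, a biotin ligase, and that were grown in serum with leukemia inhibitory factor. The labels name antibodies for the pull-down of Tgif1, Hdac1 and Smad3, and streptavidin beads for Nanog and Tgif2. Tgif1 and Hdac1 thus shared one way of precipitation and Tgif2 and Nanog the other, so paralog and method cannot be told apart. The labels do not give the level of any tagged protein. The library from BirA cells without a target was not analysed here. There were 16400 Tgif1 peaks, 19129 Tgif2 peaks, 16506 Hdac1 peaks, 17272 Nanog peaks and 1226 Smad3 peaks, from libraries whose depth is unknown here. With 1 library per factor no value has a replicate check and no test was made. The 95% intervals cover counting error over regions only, and regions are not replicates.

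Tgif1 and Tgif2 are homeodomain proteins of the TALE class. Both repress transcription and can recruit histone deacetylases, and Tgif1 also binds the corepressor CtBP. Hdac1 removes acetyl groups from histones as the catalytic subunit of the Sin3, NuRD and CoREST complexes. Nanog, another homeodomain protein, belongs to the network that keeps embryonic stem cells pluripotent and also associates with deacetylase complexes. Smad3 carries the TGF-beta and Activin signal to chromatin, where Tgif proteins can bind Smads and dampen their targets.

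The rule did not use Nanog, and Nanog divided the sides. A Nanog peak was present in 631 of the 1272 regions with Tgif1, or 49.6% (95% Wilson interval 46.9 to 52.4). It was present in 668 of the 1926 regions with Tgif2, or 34.7% (32.6 to 36.8). The Tgif1 side therefore exceeded the Tgif2 side by 14.9 percentage points (Newcombe 95% interval 11.4 to 18.4), an odds ratio of 1.85 (1.60 to 2.14). Over all Hdac1 regions without Smad3, 42.6% held Nanog, so that the sides lay above and below this background.

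The other Hdac1 regions fell between or beside the sides. With both paralogs, 40.8% (39.7 to 41.8) held Nanog, which was 8.83 points below the Tgif1 side (5.88 to 11.8) and above the Tgif2 side. The Tgif2 side minus the regions with both paralogs gave -6.10 points (-8.45 to -3.70). With neither paralog, 48.5% (46.9 to 50.2) held Nanog. The Tgif1 side differed from these by 1.08 points with an interval that spanned 0 (-2.12 to 4.27), while the Tgif2 side minus these gave -13.8 points (-16.5 to -11.1). Among Hdac1 regions without Smad3, the lowest Nanog share was thus that of regions with Tgif2 alone of the paralogs.

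The same order of the paralogs was seen where Hdac1 had no peak, at a lower level of Nanog. Of 1858 regions with Tgif1 but without Tgif2, Hdac1 and Smad3, 21.3% (19.5 to 23.2) held Nanog. Of the 3922 corresponding regions with Tgif2, 14.0% (13.0 to 15.1) did. That difference was 7.29 points (5.17 to 9.48), and the odds ratio was 1.66 (1.44 to 1.92). Intervals of the odds ratios with and without Hdac1 overlapped, and the difference between them was not tested. Higher Nanog at Tgif1 than at Tgif2 regions was therefore not particular to regions with Hdac1.

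**Figure D1:**
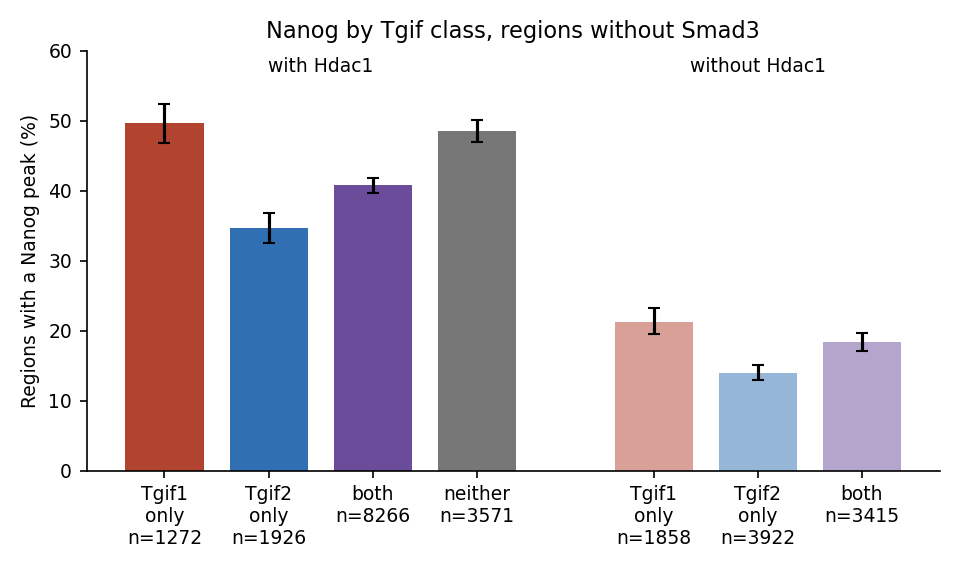
Share of regions with a Nanog peak (y axis, %) by the Tgif paralogs present (x axis), with Hdac1 (full colour) and without (pale), all without Smad3. Bars start at 0 and error bars are 95% Wilson intervals. With Hdac1 the share was 49.6% for Tgif1 only and 34.7% for Tgif2 only, and without Hdac1 21.3% and 14.0%.

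The difference had the same direction on each chromosome. The Nanog share was higher on the Tgif1 side on 19 of 19 chromosomes, by a median of 14.5 points, and the interval of the difference lay above 0 on 11 of them. It was widest on chromosome 16, where 59.1% of 44 Tgif1 regions and 24.0% of 50 Tgif2 regions held Nanog. It was narrowest on chromosome 14, with 44.1% of 34 and 41.3% of 63 regions, a difference of 2.85 points (-16.7 to 22.8). Chromosome 1 had the highest shares on both sides, 69.5% for Tgif1 and 55.8% for Tgif2. Chromosome 7 had the lowest share on the Tgif1 side with 34.9%, and chromosomes 8 and 7 the lowest on the Tgif2 side with 22.9% and 23.0%.

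**Figure D2:**
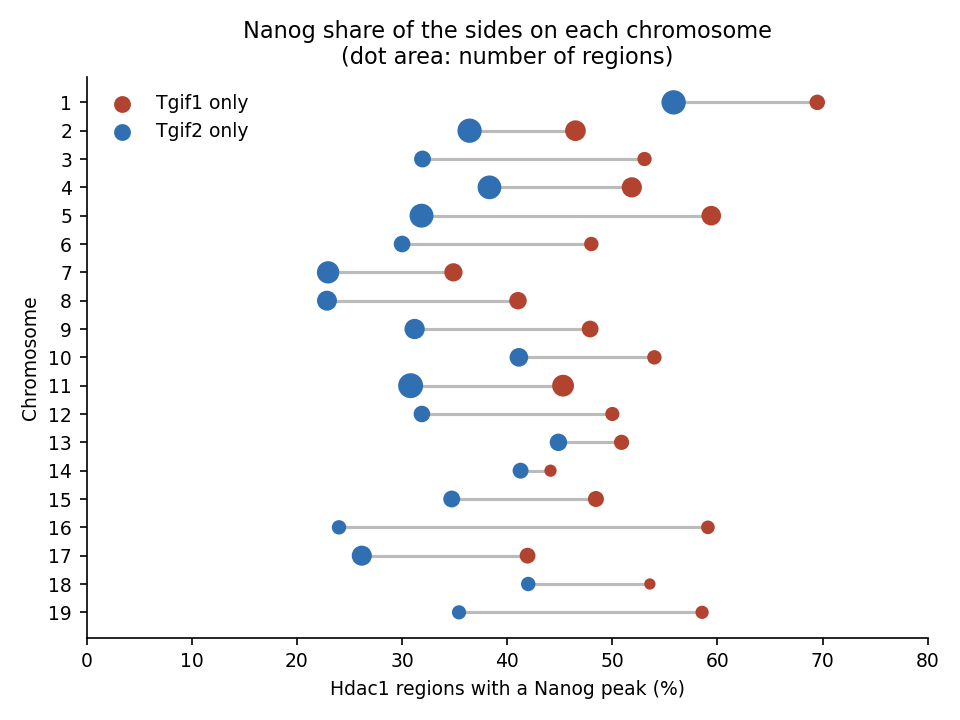
Share of Hdac1 regions with a Nanog peak (x axis, %) on the Tgif1 side (red) and the Tgif2 side (blue) of each chromosome (y axis), with dot area proportional to the number of regions. The red dot lies to the right of the blue dot on 19 of 19 chromosomes, from 2.85 points apart on chromosome 14 to 35.1 on chromosome 16.

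Chromosome 1 also stood out in the number of members. It held 163 regions of the Tgif2 side and 59 of the Tgif1 side, a ratio of 2.76, whereas the ratio on the other chromosomes ran from 1.12 on chromosome 15 to 1.85 on chromosome 14. It carried 8.46% (7.30 to 9.79) of the Tgif2 side and 4.64% (3.61 to 5.94) of the Tgif1 side. Of the peaks on chromosomes 1 to 19, 8.37% of Tgif2 and 7.13% of Tgif1 peaks were on chromosome 1. Without chromosome 1 the ratio of the sides was 1.45 in place of 1.51, and the Nanog difference was 15.9 points.

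The Tgif2 side was the larger on 19 of 19 chromosomes, but this order depended on the length of the lists. When the Tgif2 list was cut to its 16400 peaks of highest fold enrichment, 2006 regions held Tgif1 only and 1580 held Tgif2 only. The Tgif1 list has 16400 peaks and stayed whole, so regions whose Tgif2 peak was cut were counted without Tgif2. With the Tgif2 list cut by tag number instead, the counts were 1747 and 1486. The Nanog difference remained, at 12.3 and 16.6 points.

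Peaks are described by fold enrichment, the authors' ratio of a peak to its background, and by tags, the number of sequence tags read in the peak. Both are the authors' values and are compared only within a list. A region's peak of a factor is the one with the highest fold. Most members were simple, since 1255 of 1272 regions on the Tgif1 side and 1898 of 1926 on the Tgif2 side had a single Tgif and a single Hdac1 peak. The Tgif and Hdac1 peaks failed to touch each other directly in only 2 and 1 regions, which were joined through Nanog. The median direct overlap was 728.5 bp on the Tgif1 side and 776 bp on the Tgif2 side.

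Hdac1 itself was alike in size on both sides. Its median fold was 10.4 (10.02 to 10.65) on the Tgif1 side and 10.1 (9.89 to 10.3) on the Tgif2 side, and its median tag number was 43 (41 to 44) and 42 (41 to 43). The median Hdac1 peak was 972 bp wide beside Tgif1 and 973.5 bp beside Tgif2. This likeness did not hold with Tgif lists of equal length, and which side was higher differed between the cuts by fold and by tags. With Tgif lists of equal length by fold the medians were 9.25-fold and 48 tags on the Tgif1 side against 10.99-fold and 41 tags on the Tgif2 side. With equal length by tags they were 10.65-fold and 42 tags against 9.70-fold and 45 tags. At regions with both paralogs the Hdac1 fold was of the same size, with a median of 10.5 (10.3 to 10.6), but the Hdac1 peak was wider at 1142 bp and held 54 tags (54 to 55). At regions with neither paralog the Hdac1 peak was narrower at 870 bp and held 36 tags (35 to 36), although its fold was 11.1 (10.9 to 11.4). By tags and width, members thus lay between the regions with both paralogs and those with neither.

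The Tgif peaks of members ranked low in their lists by tags and a little below the middle by fold. The rule rests on these calls, so their sizes are a description only. The median Tgif1 peak of the Tgif1 side held 41 tags (40 to 42) at a fold of 11.9, against 62 tags (61 to 63) and 14.4 at regions with both paralogs. The median Tgif2 peak of the Tgif2 side held 46 tags (46 to 47) at a fold of 12.6, against 71 tags (70 to 72) and 15.6. In percentiles of the own list by tags, the medians were 27.5 for Tgif1 and 31.8 for Tgif2 at members, and 60.1 and 65.5 at regions with both. By fold the medians were 41.6 and 41.5 at members, and 56.2 and 57.4 at regions with both. A paralog without a peak was not detected at the authors' threshold, which does not show that it was absent.

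**Figure D3:**
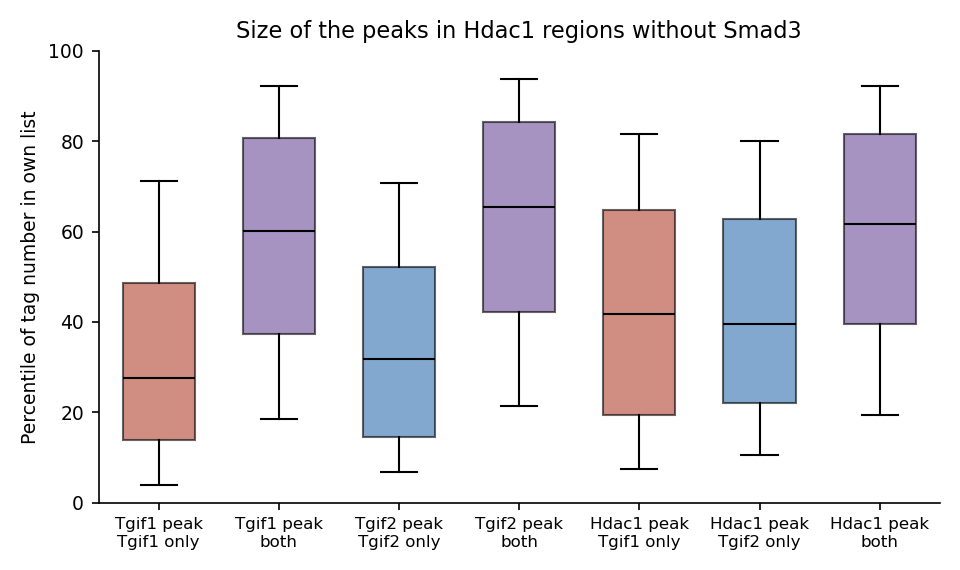
Percentile of the tag number of a peak within its own list (y axis) for the Tgif1, Tgif2 and Hdac1 peaks of Hdac1 regions without Smad3, by class (x axis). Boxes span the quartiles with a line at the median, and whiskers run from the 10th to the 90th percentile. Tgif peaks sit at medians of 27.5 and 31.8 in regions with 1 paralog and at 60.1 and 65.5 in regions with both.

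Near the threshold the members gathered. Tgif1 peaks with 38 tags or fewer, 22.0% of the Tgif1 list, made up 41.3% of the Tgif1 side and 13.1% of the regions with both paralogs. Tgif2 peaks with 40 tags or fewer, 20.4% of that list, made up 32.5% of the Tgif2 side and 9.55% of the regions with both. The smallest tag number in a list, 30 for Tgif1 and 33 for Tgif2, was that of 68 of 1272 and 76 of 1926 members. The share of the whole lists or of regions with both paralogs at these numbers is not given here. Just outside the rule lay 15 regions whose Tgif1 and Tgif2 peaks shared a region without touching each other, and 3 more whose peaks overlapped by 50 bp or less.

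Within bins of peak size the sides kept their order for Nanog. The members of both sides were divided into 5 bins by Hdac1 fold, by Hdac1 tags, by region width, and by the percentile of the Tgif peak in its own list by tags and by fold. The Tgif1 side had the higher Nanog share in 25 of these 25 bins, by 6.35 to 20.2 points, and in 24 of them the interval of the difference lay above 0. The exception was the lowest bin of Hdac1 fold, with 30.5% for Tgif1 and 24.1% for Tgif2, a difference of 6.35 points (-0.602 to 13.5). In the highest bin of Hdac1 fold the shares were 65.2% and 50.1%. The bins reuse the same regions and are not independent of each other.

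Nanog was more frequent where Hdac1 was strong and, on the Tgif2 side, where the Tgif peak held few tags. From the lowest to the highest bin of Hdac1 tags the Nanog share went from 40.5% to 61.9% on the Tgif1 side and from 26.1% to 43.5% on the Tgif2 side. By percentile of Tgif tags it went the other way, from 49.0% to 41.8% on the Tgif1 side, with 54.9% in the second bin, and from 41.1% to 32.0% on the Tgif2 side. By percentile of Tgif fold it went from 43.3% to 51.6% and from 32.5% to 35.1%, so a fall with a larger Tgif peak was not seen in that measure.

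**Figure D4:**
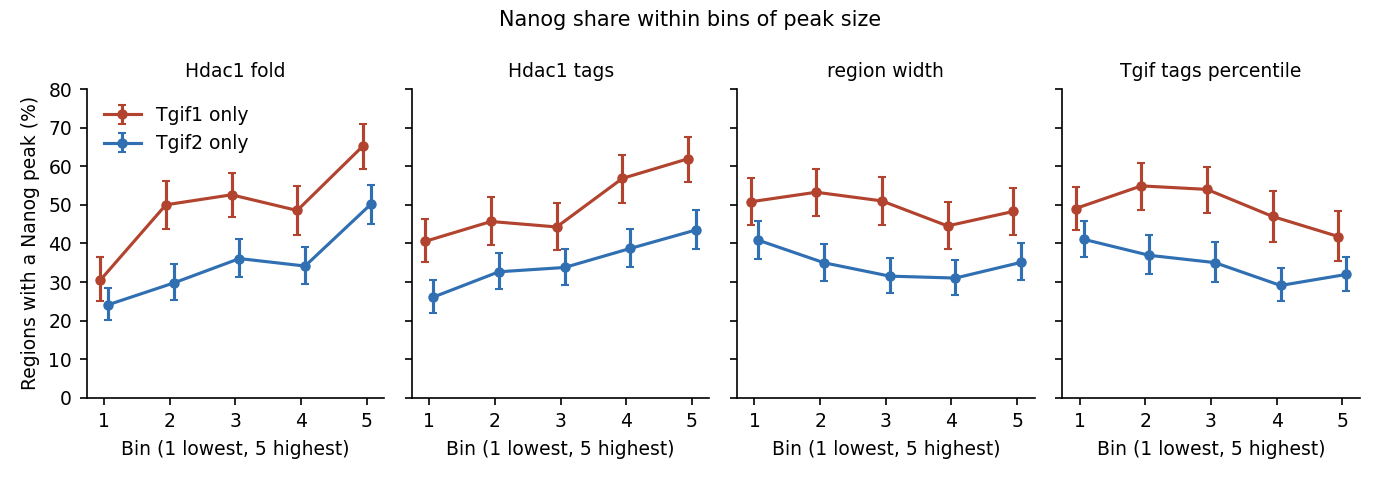
Share of members with a Nanog peak (y axis, %) in 5 bins (x axis, 1 lowest and 5 highest) of Hdac1 fold, Hdac1 tags, region width and percentile of Tgif tags, for the Tgif1 side (red) and the Tgif2 side (blue). Error bars are 95% Wilson intervals. The red points lie above the blue in each bin shown, and lie closest to them, 6.35 points apart, in the lowest bin of Hdac1 fold.

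Members with Nanog had Hdac1 peaks of higher fold and more tags, but not wider ones, than members without it on both sides. On the Tgif1 side the median Hdac1 fold was 11.1 (10.6 to 11.3) with Nanog and 9.76 (9.34 to 10.3) without, and the Hdac1 tags were 46 (43 to 48) and 40 (39 to 42). On the Tgif2 side the fold was 11.2 (10.7 to 11.7) and 9.64 (9.34 to 9.89), and the tags were 46 (44 to 47) and 41 (40 to 42). Regions with both paralogs showed this too, with a fold of 11.6 against 9.78 and 60 against 51 tags. Where Nanog was present, its own peak held a median of 41 tags (37 to 43) on the Tgif1 side and 35.5 (34 to 38) on the Tgif2 side, with folds of 24.65 (23.7 to 27.1) and 22.7 (21.3 to 23.9). The Nanog tags lay at a median percentile of 67.0 (62.3 to 69.1) of their list on the Tgif1 side and 60.2 (58.0 to 63.6) on the Tgif2 side. The difference in Nanog peak size between the sides was not tested.

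Tgif and Hdac1 tags went together across members. The rank correlation was 0.430 over the 1272 regions of the Tgif1 side and 0.402 over the 1926 of the Tgif2 side. By fold it was 0.550 and 0.588. At regions with both paralogs the Hdac1 tags correlated with Tgif1 tags at 0.474 and with Tgif2 tags at 0.428. These values are descriptions across regions, and the peaks of a pair share their region and much of its width.

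Summits of Tgif and Hdac1 lay close together, and closer where Nanog was present. The median distance was 63 bp (59 to 69) on the Tgif1 side and 69 bp (63 to 75) on the Tgif2 side, with overlapping intervals. With Nanog it was 54 bp (48 to 60) for Tgif1 and 55 bp (50 to 62) for Tgif2. Without Nanog it was 79 bp (71 to 93) and 80.5 bp (72 to 91). Regions with both paralogs also had the shorter distance with Nanog, going from 74 bp (70 to 78) without Nanog to 56 bp (53 to 59) with it for Tgif1, and from 81 bp (77 to 85) to 62 bp (59 to 65) for Tgif2. Members with Nanog were also narrower in their Hdac1 peak, with medians of 952 against 1004 bp on the Tgif1 side and 931.5 against 991 bp on the Tgif2 side. The part of peak width in the summit distance was not tested.

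**Figure D5:**
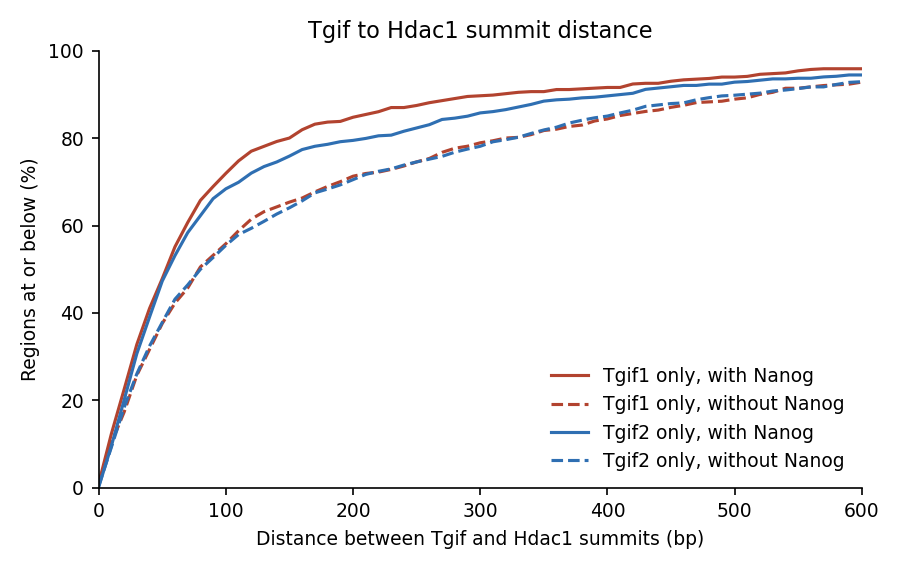
Cumulative share of members (y axis, %) by the distance between the Tgif and the Hdac1 summit (x axis, bp), for the Tgif1 side (red) and the Tgif2 side (blue), with Nanog (solid) and without (dashed). The solid lines rise earlier, with medians of 54 and 55 bp against 79 and 80.5 bp for the dashed lines.

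The Nanog summit was near both partners. It lay a median of 54 bp (49 to 60) from Tgif1 and 51 bp (47 to 59) from Hdac1 on the Tgif1 side. On the Tgif2 side it lay 62 bp (56 to 69) from Tgif2 and 47 bp (43 to 54) from Hdac1. Hdac1 was the nearer of the partners in 320 of 631 regions on the Tgif1 side, or 50.7% (46.8 to 54.6), and in 371 of 668 on the Tgif2 side, or 55.5% (51.7 to 59.3). At regions with both paralogs the Nanog summit lay 72 bp (67 to 77) from Tgif1 and 80 bp (74 to 85) from Tgif2, farther than at members, and 59 bp (56 to 62) from Hdac1. With Nanog, those regions were also wider, with a median of 1409 bp against 1084 bp on the Tgif1 side and 1074.5 bp on the Tgif2 side. The part of region width in these distances was not tested.

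A peak of the absent paralog lay within 100 kb of most members and within 1 kb of few. A Tgif2 peak lay within 1 kb of 10.1% (8.53 to 11.8) of the Tgif1 side, and a Tgif1 peak within 1 kb of 7.17% (6.10 to 8.40) of the Tgif2 side. These shares depended on how peaks were drawn and joined. They were 28.7% and 17.2% with every peak redrawn as 250 bp on either side of its summit, 2.37% and 2.29% with peaks merged within 500 bp, and 5% and 3.79% in the upper part of each list by fold. Within 20 kb the shares were 60.9% and 54.2%, and within 100 kb 90.8% and 87.4%. For comparison, of the 3571 Hdac1 regions with neither paralog, 8.60% (7.72 to 9.56) had Tgif2 and 7.28% (6.47 to 8.18) had Tgif1 within 1 kb. Within 20 kb, 53.8% (52.2 to 55.5) of them had Tgif2 and 50.8% (49.1 to 52.4) had Tgif1. Within 100 kb, 85.7% (84.6 to 86.9) of them had Tgif2 and 83.6% (82.4 to 84.8) had Tgif1. Their median distance was 17.1 kb (15.9 to 18.2) to Tgif2 and 19.3 kb (17.9 to 20.8) to Tgif1. The median distance was 13.0 kb (11.1 to 14.4) from the Tgif1 side to Tgif2 and 16.8 kb (15.5 to 18.6) from the Tgif2 side to Tgif1, and the Tgif2 list is the longer. With and without Nanog these medians were 13.2 and 12.8 kb on the Tgif1 side, and 16.5 and 16.9 kb on the Tgif2 side. Members without Nanog were a median of 19.9 kb (16.9 to 23.3) from a Nanog peak on the Tgif1 side and 23.7 kb (21.2 to 27.2) on the Tgif2 side. The nearest other member was of the same side for 42.1% (39.4 to 44.8) of Tgif1 regions and 62.0% (59.9 to 64.2) of Tgif2 regions, close to the 40.0% and 60.3% that the mix of members on the same chromosomes holds.

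Smad3 had been left out by the rule, and the regions it removed were unequal. Of the 1372 Hdac1 regions with Tgif1 only, 100 had a Smad3 peak, or 7.29% (6.03 to 8.79). Of the 1976 with Tgif2 only, 50 had one, or 2.53% (1.92 to 3.32). Nanog was in 95 of the 100 and 47 of the 50. With these regions kept the Nanog difference was 16.7 points. The Smad3 share of other Hdac1 regions and the Nanog share of all Smad3 regions were not counted here. Neither side can therefore be called high or low in Smad3. Members themselves were a median of 333 kb (305 to 372) from a Smad3 peak on the Tgif1 side and 406 kb (369 to 440) on the Tgif2 side.

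Single regions are given in mm9 coordinates as deposited, with an uncertainty of 1 bp in the start, and without gene names or sequence, because annotation and sequence of that build were not used here. They follow a rule on rank. The 5 strongest Tgif1 peaks by fold on the Tgif1 side all lacked Nanog. These few extremes do not stand for strong Tgif1 peaks at large. In the highest bin of Tgif fold, 51.6% of 258 Tgif1 regions held Nanog, against 49.6% of the whole side. At chr13:95345629-95346847 Tgif1 reached 69.4-fold with 86 tags and Hdac1 11.8-fold with 68 tags, and the summits lay 294 bp apart. At chr5:37139548-37140244 Tgif1 reached 64.4-fold with 49 tags and Hdac1 25.7-fold with 30 tags, with summits 12 bp apart. Tgif2 was 22.6 kb and 46.8 kb away from these.

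The third, chr5:115224314-115225348, had Tgif1 at 57.9-fold with 150 tags and Hdac1 at 17.1-fold with 43 tags. A Tgif2 peak of 12.7-fold and 60 tags lay only 0.478 kb from it. The others were chr17:87729984-87730811, with Tgif1 at 52.6-fold and Hdac1 at 17.8-fold, and chr11:103267787-103269197, with Tgif1 at 52.3-fold and Hdac1 at 30.8-fold. In the last of these the Tgif1 and Hdac1 summits were 0 bp apart. These strongest members therefore differed widely in how far the absent paralog was.

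The 5 strongest Tgif2 peaks by fold on the Tgif2 side lacked Nanog, on a side where 34.7% of regions held it. In the highest bin of Tgif fold, 35.1% of 382 Tgif2 regions held Nanog. At chr9:119846067-119847098 Tgif2 reached 72.9-fold with 91 tags and Hdac1 43.8-fold with 64 tags, with summits 0 bp apart and Tgif1 41.3 kb away. This region was also among the 5 leading regions of its side by Hdac1 fold. At chr2:153317755-153319429 Tgif2 reached 71.0-fold with 110 tags beside an Hdac1 peak of only 8.90-fold with 66 tags. The others were chr8:119028407-119029230 (Tgif2 64.7-fold, Hdac1 34.2-fold), chr11:34330803-34331788 (Tgif2 63.7-fold, Hdac1 15.7-fold) and chr1:168894449-168895107 (Tgif2 63.7-fold, Hdac1 34.2-fold). Tgif1 was from 32.2 to 257 kb away from these 5 regions, so none had the absent paralog close by.

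Ranked by Hdac1 fold, Nanog was present in 1 of the 5 leading regions of the Tgif1 side and 2 of the 5 of the Tgif2 side. Such small counts do not show that Nanog was scarce at strong Hdac1 peaks. In the highest bin of Hdac1 fold, 65.2% of 253 Tgif1 and 50.1% of 385 Tgif2 regions held Nanog. The whole sides held it in 49.6% and 34.7%. The strongest Hdac1 peak beside Tgif1 was chr4:136480481-136481026, with Hdac1 at 68.5-fold and 56 tags and Tgif1 at 45.3-fold and 34 tags. At chr15:72398957-72399377 Hdac1 reached 56.4-fold with 113 tags while Tgif1 had 30 tags, the smallest number in its list, and Tgif2 was 452 kb away. At chr2:38273448-38274001 Hdac1 reached 45.9-fold with 125 tags. The 1 with Nanog, chr12:42828047-42829357, had Hdac1 at 43.0-fold, Tgif1 at 30.2-fold and Nanog at 188-fold, with the Tgif1 summit 7 bp from Hdac1 and 13 bp from Nanog. The remaining region was chr15:98538284-98539003 with Hdac1 at 40.0-fold.

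Beside Tgif2 the strongest Hdac1 peak was chr5:140693719-140694549, with Hdac1 at 48.5-fold, Tgif2 at 28.8-fold and Nanog at 62.1-fold. At chr4:133576432-133576918 Hdac1 reached 48.3-fold with 77 tags, and a large Tgif1 peak of 33.1-fold and 350 tags lay 0.782 kb away. At chr1:188746357-188747387 Hdac1 reached 45.7-fold, Tgif2 29.2-fold and Nanog 129-fold. At chr2:136539728-136540408 Hdac1 reached 45.7-fold and Tgif2 43.6-fold, without Nanog. The second of these shows a member that adjoined a strong peak of the paralog it lacked.

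The strongest Nanog peaks by fold sat in members whose Tgif peak held few tags, but low tag numbers were common among members with Nanog. Their median Tgif peak held 41 tags on the Tgif1 side and 44.5 on the Tgif2 side, with lower quartiles of 35 and 37. On the Tgif1 side, chr10:84914145-84915145 had Nanog at 501-fold with 301 tags, Hdac1 at 13.3-fold with 36 tags and Tgif1 at 8.75-fold with 31 tags. Its Tgif1 summit was 1 bp from Hdac1 and 17 bp from Nanog. At chr16:48422182-48423142 Nanog reached 459-fold, Hdac1 28.8-fold and Tgif1 15.9-fold with 35 tags. At chr1:92424050-92425624 Nanog reached 263-fold, with Tgif1 at 21.4-fold and 39 tags.

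On the Tgif2 side, chr2:35700895-35701950 had Nanog at 313-fold with 170 tags, Hdac1 at 20.8-fold with 34 tags and Tgif2 at 13.8-fold with 35 tags. Tgif1 was 133 kb from it. At chr2:22475199-22476080 Nanog reached 274-fold and Tgif2 15.2-fold with 40 tags, and at chr9:40667103-40667946 Nanog reached 256-fold and Tgif2 24.1-fold with 40 tags. In all 6 of these regions the Tgif peak held 31 to 40 tags, near the smallest numbers of the lists. By fold these Tgif peaks were not small throughout, lying from the 17.4th to the 81.6th percentile of their lists.

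The closest calls of the rule missed the other paralog by a few bases. On the Tgif1 side, chr7:134360776-134361532 (Tgif1 19.8-fold, Hdac1 17.5-fold, Nanog 19.7-fold) ended 7 bp before a Tgif2 peak of 17.9-fold and 40 tags. At chr17:66797146-66798544 (Tgif1 8.13-fold with 52 tags, Hdac1 7.47-fold) the gap was 13 bp, to a Tgif2 peak of 15.8-fold in its own list. On the Tgif2 side, chr4:135133149-135134259 (Tgif2 9.78-fold, Hdac1 11.1-fold, Nanog 13.7-fold) ended 3 bp before a Tgif1 peak of 11.5-fold and 39 tags. At chr4:130681573-130682504 (Tgif2 13.4-fold, Hdac1 19.2-fold) the gap was 31 bp, to a Tgif1 peak of 12.2-fold and 32 tags. When members with the other paralog within 1 kb were left out, 1144 and 1788 regions remained and the Nanog difference was 15.2 points.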

How the data were processed

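Peak lists of 5 ChIP-seq libraries were analysed, 1 per factor. The authors aligned reads with BWA 0.5.9-r16 to mm9 and used MACS, per the submitters' processing notes. Settings, thresholds, the control of each list and the version of MACS are not given in the sources used here. The deposited lists have no header and were read from their values: a fold enrichment per peak (a ratio over background), a whole-number count of tags per peak, and the summit position. No column was treated as a p-value.

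Members and comparisons were chosen with earlier results of these data known. Peaks were taken as half-open intervals and merged at 1 bp of overlap, which can chain a pair through another factor. Shares have Wilson and differences Newcombe 95% intervals, odds ratios Woolf intervals, and medians order-statistic intervals. Named regions were the 5 highest by Tgif fold, the 5 by Hdac1 fold and the 3 by Nanog fold on each side, among regions with 1 Tgif and 1 Hdac1 peak, and the 2 with the smallest gap to the absent paralog. Gene names, gene lists and sequences were planned only for an mm9 annotation and were not used here. The merging code was checked on simulated data with well separated sites and on touching intervals, but chaining through another factor was not checked. Python 3.11.15, NumPy 2.4.6, pandas 2.3.3, SciPy 1.17.1 and matplotlib 3.10.9 were used.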

Additional observations from a re-analysis of the deposited data

How the results depend on the processing

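No paired analysis was possible because each factor had 1 library. Of 13 alternatives, 10 were planned and 3 (stronger Tgif peaks, and the Nanog restrictions by tags and by fold) were chosen after seeing the data. Of 167 alternative values, 130 stayed within the interval of the value reported, or within 1.5 times of it for counts, and 37 moved. The Nanog difference, the one value with a sign, stayed positive and ran from 10.1 to 16.7 points. The order of the sides turned with Tgif lists of equal length by fold, for the number of regions, the median Hdac1 fold and the summit distance (73 and 63 bp), and by tags for the number of regions and the median Hdac1 tags. That of the median Hdac1 fold also turned in the upper part of every list and with stronger Tgif peaks (10.16 and 10.27). When every list was limited to its upper part, from its median fold up, the Tgif2 side fell to 1030 regions, Nanog shares were 38.8% (Tgif1 side) and 24.5% (Tgif2 side), Hdac1 medians were 13.96-fold with 49 tags and 14.46-fold with 44 tags, summit distances 45.5 and 57 bp, and shares with the absent paralog within 1 kb 5% and 3.79%. With Tgif lists of equal length by fold, the Tgif1 side had 2006 regions, Hdac1 medians were 9.25-fold with 48 tags on it and 10.99-fold on the Tgif2 side. By tags, Hdac1 medians on the Tgif2 side were 9.70-fold and 45 tags, and 8.24% of the Tgif1 side had Tgif2 within 1 kb. With peaks of 250 bp each side of the summit, 45.0% of the Tgif1 side held Nanog, the Nanog difference was 10.9 points, Hdac1 on the Tgif1 side had 45 tags, summit distances were 54 and 59 bp, and 28.7% and 17.2% had the absent paralog within 1 kb. Merging within 500 bp left 2.37% and 2.29% with it, which follows from the merging. With Smad3 regions kept, 52.9% of the Tgif1 side held Nanog. With Tgif peaks above the lowest 20% by tags, Hdac1 on the Tgif1 side had 46 tags, and 7.98% and 5.95% had the absent paralog within 1 kb. Nanog peaks at or above their median tags were in 33.6% and 22.0% of the sides. Those at or above their median fold were in 26.3% and 16.2%, with a difference of 10.1 points. The cause of these moves was not tested. Depth of the libraries is unknown, so a paralog below the peak threshold cannot be told from one that is absent.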
